A study of Mus musculus with 6 samples.

Results

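The 33 genes described here make, move, store and sense cholesterol, and they were taken by symbol from the 47455 gene symbols of the deposited tables, where all 33 were found. They fall into 5 groups by role: 8 enzymes of the mevalonate section of the pathway and its branch to longer isoprenoids, 11 enzymes of the sterol section, 5 genes that control the SREBP transcription factors, 5 genes of the LXR receptors and cholesterol export, and 4 genes of sterol transport and storage. The list does not cover every gene of the pathway. Of the 33, 32 had enough counts to be tested, and Nr1h3 did not.

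Cells build cholesterol from acetyl-CoA through mevalonate, isoprenoid diphosphates, squalene and lanosterol. When sterols in the endoplasmic reticulum run low, the escort protein SCAP carries SREBP precursors to the Golgi, where they are cut and released as transcription factors for the synthesis genes, and the INSIG proteins hold SCAP back when sterols are plentiful. LXR receptors respond to oxysterols, oxidised forms of cholesterol, and activate exporters such as ABCA1 and ABCG1. In the epidermis, cholesterol is made by the keratinocytes themselves and forms part of the lipid layers that seal the stratum corneum.

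Whole epidermis was taken from 3 C57BL/6 mice aged 6 to 8 weeks. Each mouse gave 1 wounded library, from skin that had received 8 wounds with a 3 mm punch biopsy and was collected 2 h later, and 1 library labelled as non-wounded tissue. Trypsin was used to part the epidermis from the dermis. The labels do not say when the non-wounded skin was collected relative to wounding, or from where on the body. The design compares epidermis soon after damage with undamaged epidermis of the same animals.

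The libraries held between 20746185 and 26814845 counts. The labelled tissue was borne out by the 4 keratinocyte markers Krt5, Krt14, Krt1 and Krt10, whose summed level lay between 13419.8 and 20696 TPM (transcript abundance adjusted for length and library size), against 0.69 to 1.38 TPM for 4 endothelial markers. Markers of other cells moved in both directions. In wounded libraries 5 of 6 fibroblast markers were called higher (summed level 1.71 to 3.38 TPM non-wounded, 10.7 to 24.1 wounded) and 4 of 4 red blood cell markers (37.8 to 51.4 and 154 to 266 TPM). Called higher too were 4 of 5 skeletal muscle markers, the 2 tested neutrophil markers and 1 of 2 tested adipocyte markers, Fabp4. No marker of these cell types was called lower. Of 3 T cell markers Cd3e was called lower (log2 -0.56), while Trdc (-0.14) and Trac (-0.37) did not pass and differed in sign between the mice. The summed level of the 3 was 30.4 to 38.3 TPM in non-wounded and 19.2 to 21.7 TPM in wounded libraries. In tissue of mixed cells, fewer cells of a type and less RNA per cell cannot be told apart.

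The start regions of the genes are shown first, because the synthesis genes that rose and those that fell can be compared there. RefSeq windows on GRCm38.p6 from 250 bases before to 50 after the transcript start were found for 27 of the 33 genes. The windows printed are those of the 5 called synthesis enzymes with the largest changes that have one, and of the exporter gene Abca1, since Abcg1 has none. Capitals mark CCAAT boxes (CCAAT or its complement ATTGG), the sequence bound by NF-Y, and E-boxes (CACGTG). Hsd17b7 and Idi1 rose in wounded epidermis, and Mvd, Mvk, Lss and Abca1 fell.
Hsd17b7, chr1:169969156-169969455, minus strand: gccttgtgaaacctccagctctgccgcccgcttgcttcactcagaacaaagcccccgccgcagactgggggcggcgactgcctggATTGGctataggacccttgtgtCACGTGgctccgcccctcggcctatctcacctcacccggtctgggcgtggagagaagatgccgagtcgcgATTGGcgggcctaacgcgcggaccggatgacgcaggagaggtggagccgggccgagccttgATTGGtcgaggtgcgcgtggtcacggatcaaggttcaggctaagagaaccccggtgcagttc
Idi1, chr13:8885356-8885655, plus strand: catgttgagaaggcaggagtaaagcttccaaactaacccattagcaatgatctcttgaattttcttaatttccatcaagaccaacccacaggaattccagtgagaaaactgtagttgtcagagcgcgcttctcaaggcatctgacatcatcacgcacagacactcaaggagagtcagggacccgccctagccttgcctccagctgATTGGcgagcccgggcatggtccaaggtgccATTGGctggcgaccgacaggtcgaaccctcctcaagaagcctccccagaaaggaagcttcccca
Mvd, chr8:122443373-122443672, minus strand: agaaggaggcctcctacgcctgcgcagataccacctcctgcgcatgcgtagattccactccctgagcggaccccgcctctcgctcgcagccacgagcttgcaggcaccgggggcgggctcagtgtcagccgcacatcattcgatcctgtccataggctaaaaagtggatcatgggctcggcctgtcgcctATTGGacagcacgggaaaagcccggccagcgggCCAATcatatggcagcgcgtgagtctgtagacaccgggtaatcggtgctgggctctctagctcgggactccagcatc
Mvk, chr5:114444019-114444318, plus strand: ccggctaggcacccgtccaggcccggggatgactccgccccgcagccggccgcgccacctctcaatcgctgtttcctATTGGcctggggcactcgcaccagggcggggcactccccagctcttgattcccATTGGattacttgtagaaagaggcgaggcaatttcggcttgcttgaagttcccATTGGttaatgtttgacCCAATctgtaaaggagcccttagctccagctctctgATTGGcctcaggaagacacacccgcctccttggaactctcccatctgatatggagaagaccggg
Lss, chr10:76531355-76531654, plus strand: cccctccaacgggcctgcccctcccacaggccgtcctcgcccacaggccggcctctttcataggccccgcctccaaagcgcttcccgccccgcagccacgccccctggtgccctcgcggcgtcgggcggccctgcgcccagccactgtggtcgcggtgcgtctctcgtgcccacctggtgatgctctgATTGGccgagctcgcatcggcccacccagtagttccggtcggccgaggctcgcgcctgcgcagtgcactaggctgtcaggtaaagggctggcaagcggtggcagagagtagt
Abca1, chr4:53159846-53160145, minus strand: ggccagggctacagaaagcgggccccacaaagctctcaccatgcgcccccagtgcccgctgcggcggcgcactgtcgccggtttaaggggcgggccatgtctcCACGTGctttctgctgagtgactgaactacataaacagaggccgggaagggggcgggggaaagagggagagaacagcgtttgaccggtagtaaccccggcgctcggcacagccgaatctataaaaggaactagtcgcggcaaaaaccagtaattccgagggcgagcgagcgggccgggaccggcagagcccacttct

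A gene with several start sites has several windows and was counted where any of them held a match. A CCAAT box on either strand was found in 15 of the 16 synthesis enzymes with a window, Acat2 being the exception, and in 4 of 5 SREBP control genes. It was found in 1 of 4 LXR and efflux genes, Mylip, and not in Abca1, Nr1h2 or Nr1h3. Of the 10798 tested genes with a window, 42.4% hold it, as do 37.41% of all 32851 windows. The rising genes Hsd17b7 and Idi1 hold 3 and 2 matches, and the falling genes Mvd, Mvk and Lss hold 2, 5 and 1, so the box was present in synthesis genes of either direction. The Sp1 box GGGCGG, searched on both strands, was found in 14 of the 16 synthesis enzymes, against 66.1% of tested genes. The core of the sterol regulatory element, TCACNCCAC, was found on either strand only in the window of Hmgcs1 among the 27 genes, against 1.4% of tested genes. E-boxes were found in 3 of the 16 synthesis enzymes, against 11.4% of tested genes. No window of a member held the LXR direct repeat of AGGTCA with a gap of 4 bases. That exact repeat was found in 0 of the 10798 tested genes with a window, so its absence from the members tells nothing about them. In the 6 printed windows no CCAAT box, E-box or Sp1 box overlaps another. A match is a description of the letters in the window and is no evidence of binding. Only these fixed patterns were searched, so a missing match is no evidence that a gene lacks such an element.

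In wounded epidermis the pathway did not move as 1 block: 9 of the 32 tested genes rose, 4 fell and 19 did not pass. That is 40.6% of those tested, against 48.4% of all 16079 genes, so the list was called no more often than the transcriptome as a whole. For higher and lower genes the shares over all genes were 24.0% and 24.4%. A gene was called at an adjusted p under 0.05 in edgeR's quasi-likelihood test, wounded against non-wounded, and levels are CPM, counts divided by library sizes that were adjusted with TMM. The median log2 fold change (wounded over non-wounded) was 0.07 over the 32 genes. The genes that rose were Srebf2, Insig1, Idi1, Fdft1, Sqle, Cyp51, Hsd17b7, Sc5d and Abcg1, and those that fell were Mvk, Mvd, Lss and Abca1. In 10 genes every wounded library lay above every non-wounded one and in 6 genes below, against 58.5% of all genes without overlap (28.8% above and 29.7% below).

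Against TMM, the median log2 fold change over all genes shifted by -0.33 when counts were scaled to library totals only, and by -0.15 with upper-quartile factors. With library totals alone 4 of the genes were called higher and 14 lower, while 54.9% of all genes were called, 13.5% higher and 41.4% lower. Each of the 13 called genes kept its sign in all 18 alternatives. Hsd17b7, Mvk, Mvd, Lss and Abca1 were called in all 18, Abcg1 in 17, Sqle and Srebf2 in 15, and Insig1 in 8. Changes below are relative to TMM.

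**Figure D1:**
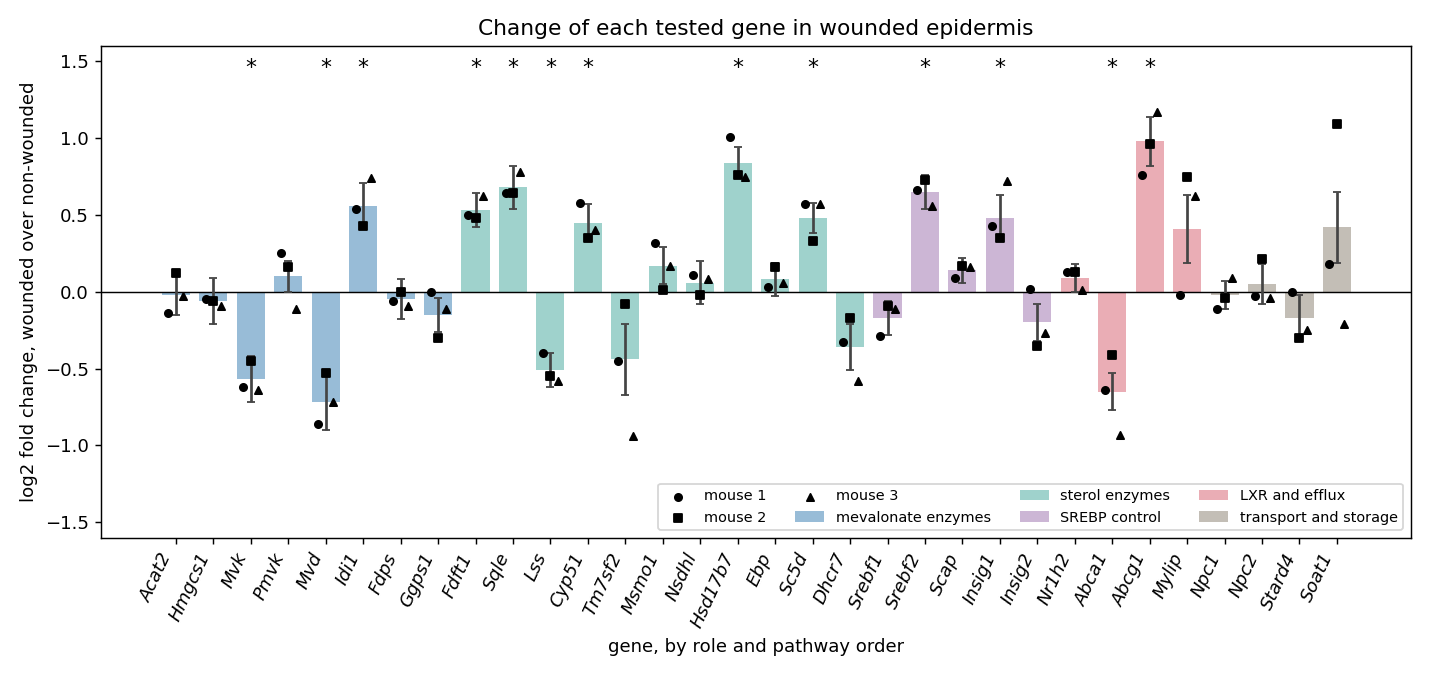
Log2 fold change of the 32 tested genes, wounded over non-wounded epidermis, in the order of the pathway. Bars are the edgeR estimates with their standard errors, points are the differences in log2 CPM within each of 3 mice, colours are the 5 roles and asterisks mark the 13 genes called. Idi1, Fdft1, Sqle, Cyp51, Hsd17b7 and Sc5d stand above 0 in every mouse and Mvk, Mvd and Lss below 0, and the estimates of these genes keep their sign under the other scalings tried.

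Among the genes that control SREBP, Srebf2 and Insig1 rose, and Srebf1, Scap and Insig2 did not pass. That is 40.0% called, against 48.4% of all tested genes. Srebf2, which encodes the SREBP that mainly drives sterol synthesis, stood at 226, 184 and 203 CPM in mice 1, 2 and 3 without wounding and at 357, 305 and 298 CPM in the wounded libraries. Every wounded library lay above every non-wounded one. The rise was 1.57-fold (log2 0.65, SE 0.11, adjusted p = 0.000769 by edgeR), in 3 of 3 mice, and with the deposited TPM it was not called (log2 0.30). Srebf2 spans chr15:82147181-82205379 on the plus strand (GRCm38).

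Srebf1, which encodes the SREBP more linked to fatty acid synthesis, stood at 125, 94.5 and 107 CPM in non-wounded and 102, 88.5 and 99.1 CPM in wounded libraries. The groups overlapped and the difference did not pass (log2 -0.17, SE 0.11, adjusted p = 0.251 by edgeR), although scaling to library totals made it a call (log2 -0.49, adjusted p = 0.00465 by edgeR), as did upper-quartile factors (adjusted p = 0.0387 by edgeR). The adjusted p ran from 0.00465 to 0.671 over the alternatives. Within each library the ratio of Srebf2 to Srebf1 counts, which does not depend on scaling, was 1.82, 1.94 and 1.90 in non-wounded and 3.49, 3.45 and 3.01 in wounded epidermis. The ratio was thus 1.58 to 1.92 times larger after wounding within the mice.

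Insig1 and Insig2 encode the retention proteins that bind SCAP. Insig1, itself a target of SREBP, stood at 153, 134 and 98.2 CPM in non-wounded and 205, 171 and 162 CPM in wounded libraries (log2 0.48, SE 0.15, adjusted p = 0.0248 by edgeR). All wounded libraries were the higher ones, but this was the least stable call of the list. With the mouse as a block Insig1 stayed called (log2 0.50, adjusted p = 0.00124 by edgeR). The fits that left out libraries had no mouse term, so differences between the mice counted as spread in them. The call was lost on leaving out the non-wounded library of mouse 2 or of mouse 3 (log2 0.51 and 0.32, adjusted p = 0.0546 and 0.0675 by edgeR), the wounded library of mouse 1 or of mouse 2 (log2 0.39 and 0.51, adjusted p = 0.0784 and 0.0507 by edgeR), or both libraries of mouse 2 (log2 0.55, adjusted p = 0.0851 by edgeR). The call was lost too with upper-quartile factors, with library totals alone and with the deposited TPM (log2 0.34, 0.16 and 0.06). Over the 18 alternatives the adjusted p ran from 0.00043 to 0.801. Insig2 stood at 76.1, 91.7 and 75.3 CPM in non-wounded and 77.4, 71.8 and 62.3 CPM in wounded libraries, with overlap. Insig2 (log2 -0.20, SE 0.12) and Scap (0.14, SE 0.08) did not pass, although Insig2 was called as lower when scaled to library totals or with upper-quartile factors (adjusted p = 0.0031 and 0.0313 by edgeR). The count ratio of Insig1 to Insig2 was 2.01, 1.46 and 1.30 in non-wounded and 2.65, 2.38 and 2.61 in wounded libraries, with no overlap.

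In the mevalonate section 1 enzyme gene, Idi1, rose, Mvk and Mvd fell, and the other 5 of 8 did not pass. That is 37.5% called, against 48.4% of all tested genes, and with library totals alone 0 were higher and 6 lower. Hmgcs1 encodes the HMG-CoA synthase at the entry of the pathway and had the highest mean TPM of the 33 genes in non-wounded epidermis. It stood at 1060.4, 918 and 775 CPM in non-wounded and 1024, 881 and 729 CPM in wounded libraries, so that each wounded library lay close to the non-wounded one of its own mouse (log2 -0.06, SE 0.15, adjusted p = 0.748 by edgeR). The kinase gene Mvk went from 53.8, 38.6 and 42.5 to 35.0, 28.3 and 27.2 CPM in mice 1, 2 and 3 (log2 -0.57, SE 0.15, adjusted p = 0.00872 by edgeR). The decarboxylase gene Mvd went from 60.9, 38.4 and 42.2 to 33.6, 26.5 and 25.6 CPM (log2 -0.72, SE 0.18, adjusted p = 0.00703 by edgeR). All wounded libraries were the lower ones for both genes, and both fell in 3 of 3 mice.

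The next step moved the other way. Idi1, whose product interconverts the first isoprenoid diphosphates, went from 289, 264 and 196 to 422, 356 and 327 CPM (log2 0.56, SE 0.15, adjusted p = 0.00985 by edgeR), with no overlap of the groups and a rise in 3 of 3 mice. With library totals alone this was log2 0.23 and not called (adjusted p = 0.203 by edgeR; range over the alternatives 2.80e-05 to 0.537). The count ratio of Idi1 to Mvd, neighbours in the pathway, was 4.75, 6.88 and 4.65 in non-wounded and 12.5, 13.4 and 12.8 in wounded libraries. The thiolase gene Acat2 (log2 -0.02, SE 0.13), the second kinase gene Pmvk (0.10, SE 0.10), the farnesyl diphosphate synthase gene Fdps (-0.05, SE 0.13) and the geranylgeranyl diphosphate synthase gene Ggps1 (-0.15, SE 0.11) did not pass. Ggps1 shares 257 exon bases with Arid4b on the other strand, and since the strand setting is not given its value is uncertain. Ggps1 stood at 34.6, 42.2 and 37.2 CPM in non-wounded and 34.5, 34.1 and 34.3 CPM in wounded libraries. Fdps stood at 311, 251 and 237 CPM and at 298, 251 and 222 CPM, and Acat2 at 37.2, 30.1 and 28.6 CPM and at 33.9, 32.7 and 28.0 CPM. The groups overlapped for Fdps and Acat2, and for Ggps1 the wounded libraries were just below the others. Scaled to library totals only, Acat2, Hmgcs1, Fdps and Ggps1 were called as lower (adjusted p = 0.0451, 0.0438, 0.0349 and 0.00364 by edgeR). Hmgcs1 and Idi1 share 557 and 323 exon bases with predicted transcripts on the other strand, whose levels were not analysed here. Fdps shares 1124 exon bases with Gm43738 on the same strand, at a mean of 23.3 counts against 6164.2 for Fdps. Further overlaps with genes on the other strand include those of Scap (985 exon bases), Npc1 (511, with Rmc1), Lss (381) and Srebf1 (109, with Rai1).

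In the sterol section 5 of 11 enzyme genes rose and 1, Lss, fell. That is 54.5% called, against 48.4% of all tested genes, and with library totals alone 2 were higher and 3 lower. Fdft1 encodes squalene synthase, the first enzyme committed to sterols, and went from 199, 174 and 157 to 281, 242 and 241 CPM (log2 0.53, SE 0.11, adjusted p = 0.00294 by edgeR). Sqle encodes squalene epoxidase, a rate-controlling step, and went from 208, 185 and 147 to 325, 289 and 252 CPM (log2 0.68, SE 0.14, adjusted p = 0.00236 by edgeR). All wounded libraries of both genes lay above all non-wounded ones. Fdft1 shares 774 exon bases with Ctsb on the other strand, a cathepsin gene with a mean of 9906.3 counts that also rose (log2 0.43). Since the strand setting is not given, reads of the shared bases may not be told apart, and the value of Fdft1 is uncertain.

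Lss, which encodes the lanosterol synthase acting right after squalene epoxidase, went from 104, 92.8 and 105 to 78.7, 63.4 and 70.0 CPM (log2 -0.51, SE 0.11, adjusted p = 0.00276 by edgeR). It fell in 3 of 3 mice while Sqle rose in 3 of 3. The count ratio of Sqle to Lss was 2.00, 2.00 and 1.40 in non-wounded and 4.13, 4.56 and 3.60 in wounded libraries, which is 2.06 to 2.57 times larger within the mice.

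Hsd17b7, whose product reduces the sterol ketone during removal of the methyl groups, showed the largest change among the 19 enzymes. It stood at 64.8, 63.1 and 64.6 CPM in non-wounded and 130.1, 107 and 109 CPM in wounded libraries, which is 1.79 times as much (log2 0.84, SE 0.10, adjusted p = 9.30e-05 by edgeR). It rose in 3 of 3 mice. The non-wounded values lay close together, with an SD of 0.91 CPM against 13.0 CPM in wounded libraries. The gene spans chr1:169949535-169969241 on the minus strand (GRCm38).

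Cyp51, the lanosterol demethylase gene, went from 277, 261 and 234 to 416, 333 and 308 CPM (log2 0.45, SE 0.12, adjusted p = 0.0114 by edgeR). Sc5d, the gene of the lathosterol desaturase, went from 104, 117 and 93.0 to 155, 147 and 138 CPM (log2 0.48, SE 0.10, adjusted p = 0.00334 by edgeR). Neither gene's groups overlapped. Without both libraries of mouse 2, and with upper-quartile factors, the call of Cyp51 was lost (log2 0.50 and 0.31, adjusted p = 0.0582 and 0.0617 by edgeR; range over the alternatives 0.000735 to 0.49). With the mouse as a block Cyp51 stayed called (log2 0.44, adjusted p = 0.00111 by edgeR). Cyp51 shares 166 exon bases with Akap9 on the other strand, which did not pass (log2 -0.01). Idi1, Fdft1, Cyp51 and Sc5d were not called when scaled to library totals only, and with the deposited TPM Hsd17b7 was the only one of the rising enzymes to be called.

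The other 5 sterol enzymes did not pass. The methyl sterol oxidase gene Msmo1 changed by log2 0.17 (SE 0.12), the dehydrogenase gene Nsdhl by 0.06 (SE 0.14), the isomerase gene Ebp by 0.08 (SE 0.11) and the reductase gene Tm7sf2 by -0.44 (SE 0.23). Tm7sf2 stood at 10.9, 9.90 and 9.41 CPM in non-wounded and 7.96, 9.38 and 4.85 CPM in wounded libraries, so that the groups did not overlap, by a narrow margin. It was called as lower when scaled to library totals (log2 -0.77, adjusted p = 0.0159 by edgeR). With a mean of 210 counts, it shares 532 exon bases with Vps51 on the same strand (mean 938.3 counts), so its value is uncertain. Dhcr7 encodes the reductase of the last step, whose substrate is also the precursor of vitamin D in skin, and went from 149.5, 111 and 124 to 119, 98.9 and 82.6 CPM. It was lower in 3 of 3 mice but the groups overlapped (log2 -0.36, SE 0.15, adjusted p = 0.0660 by edgeR). With the mouse as a block it was called as lower (adjusted p = 0.00910 by edgeR), and it was called under 11 of the 18 alternatives in all (range 0.00278 to 0.227).

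Sebaceous gland cells also make sterols, and 3 of 8 sebocyte markers, Awat2, Cidea and Krt79, rose in the same libraries (log2 2.20, 1.28 and 0.44). The summed level of the 8 markers was 751, 878 and 680.1 TPM in non-wounded and 801, 896 and 699.9 TPM in wounded libraries. Of the other 5, which did not pass, Mc5r was at log2 -1.03 (SE 0.56) and lower in 3 of 3 mice, and Scd1 (0.08), Elovl3 (0.32), Dgat2l6 (0.60) and Pparg (0.76) differed in sign between the mice. The part of these cells in the changes of the synthesis genes was not tested.

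In the LXR and efflux group the 2 exporter genes moved in opposite directions. Abca1 encodes the transporter that loads cholesterol on to lipid-poor apolipoproteins, and went from 49.4, 48.6 and 55.9 to 31.7, 36.6 and 29.4 CPM, a log2 fold change of -0.65 (SE 0.12, adjusted p = 0.00108 by edgeR). Abcg1 encodes a transporter that passes cholesterol to lipoprotein particles, and went from 16.4, 20.9 and 17.6 to 27.8, 40.9 and 39.8 CPM, 1.97 times as much (log2 0.98, SE 0.16, adjusted p = 0.000733 by edgeR). Each gene changed one way in 3 of 3 mice and its groups did not overlap, and Abcg1 had the largest change of the 32 genes. The count ratio of Abcg1 to Abca1 was 0.332, 0.431 and 0.315 in non-wounded and 0.876, 1.12 and 1.35 in wounded libraries.

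The call of Abcg1 ended only with the deposited TPM of all genes (adjusted p = 0.0712 by limma; range over the alternatives 4.60e-09 to 0.0712). Abca1 spans chr4:53030787-53159895 on the minus strand and Abcg1 chr17:31057675-31117988 on the plus strand (GRCm38). Macrophages express both transporters, and of 6 macrophage and monocyte markers Csf1r and Adgre1 fell (log2 -1.20 and -0.85) and Cd68 and Lyz2 rose (0.77 and 1.67), with a summed level of 40.7 to 48.3 TPM in non-wounded and 23.8 to 35.0 TPM in wounded libraries. Csf1r and Adgre1 are also expressed by the Langerhans cells of the epidermis, whose marker Cd207 rose (log2 1.83, SE 0.14, in 3 of 3 mice) and whose Cd74 was at log2 0.24 (SE 0.11) and did not pass. Fcgr1 was at 0 counts in all libraries but 1. The part of these cells in the changes of the exporter genes was not tested.

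The receptor genes themselves did not pass or could not be tested. Nr1h2, which encodes LXR beta, stood at 68.6, 69.1 and 66.1 CPM in non-wounded and 75.2, 75.4 and 66.6 CPM in wounded libraries (log2 0.09, SE 0.09, adjusted p = 0.441 by edgeR). Nr1h3, which encodes LXR alpha, had 9, 8 and 13 counts in non-wounded and 4, 3 and 4 counts in wounded libraries, too few to test. Mylip, an LXR target whose product marks lipoprotein receptors for degradation, went from 13.0, 8.23 and 7.36 to 12.8, 13.9 and 11.3 CPM. It overlapped between the groups and did not pass (log2 0.41, SE 0.22, adjusted p = 0.143 by edgeR). Leaving out the non-wounded library of mouse 1, or both of its libraries, made it a call (log2 0.70 and 0.69, adjusted p = 0.0119 and 0.0251 by edgeR; range over the alternatives 0.0119 to 0.840).

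None of the 4 transport and storage genes was called under TMM, against 48.4% of all tested genes. Npc1 stood at 101, 92.7 and 89.4 CPM in non-wounded and 93.5, 90.1 and 95.2 CPM in wounded libraries, and Stard4 at 195, 182 and 150.4 CPM and at 195, 148 and 127 CPM. The groups of both overlapped. Scaled to library totals only, Npc1 and Stard4 were called as lower (adjusted p = 0.00752 and 0.0207 by edgeR). Npc1 and Npc2, whose products release cholesterol from lysosomes, changed by log2 -0.02 (SE 0.09) and 0.05 (SE 0.13). Stard4, the gene of a cytosolic sterol carrier, changed by -0.17 (SE 0.15). Soat1, which encodes the enzyme that esterifies cholesterol for storage, stood at 27.3, 27.2 and 34.8 CPM in non-wounded and 31.0, 58.2 and 30.1 CPM in wounded libraries. Its value rested on the wounded library of mouse 2, with log2 0.42 (SE 0.23, adjusted p = 0.160 by edgeR) and 0.03 without that library, and it was called when low counts were not filtered (adjusted p = 0.0193 by edgeR; range over the alternatives 0.0193 to 0.921).

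Synthesis and efflux were set against each other within each mouse, as medians of the differences in log2 CPM, with no test. For the 19 synthesis enzymes the medians were 0.03, 0.01 and -0.03 in mice 1, 2 and 3, and for the 4 tested LXR and efflux genes they were 0.05, 0.44 and 0.31, beside -0.02, -0.03 and -0.02 over all tested genes. With library totals alone they were -0.30, -0.32 and -0.35 for synthesis and -0.27, 0.11 and -0.01 for efflux, so the sign turned with the scaling in mice 1 and 2 for synthesis and in mice 1 and 3 for efflux. Each median covers genes that moved in opposite directions: 10, 10 and 9 of the 19 enzymes were higher in the wounded library of mice 1, 2 and 3. Under TMM the exporters were the extremes of the efflux genes, Abca1 at -0.64, -0.41 and -0.93 and Abcg1 at 0.76, 0.96 and 1.17. The efflux medians thus lie between the values of Nr1h2 (0.13, 0.13 and 0.01) and Mylip (-0.02, 0.75 and 0.62). Neither of these was called. By section, the medians were -0.05, -0.03 and -0.10 for the 8 mevalonate enzymes and 0.32, 0.16 and 0.17 for the 11 sterol enzymes.

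**Figure D2:**
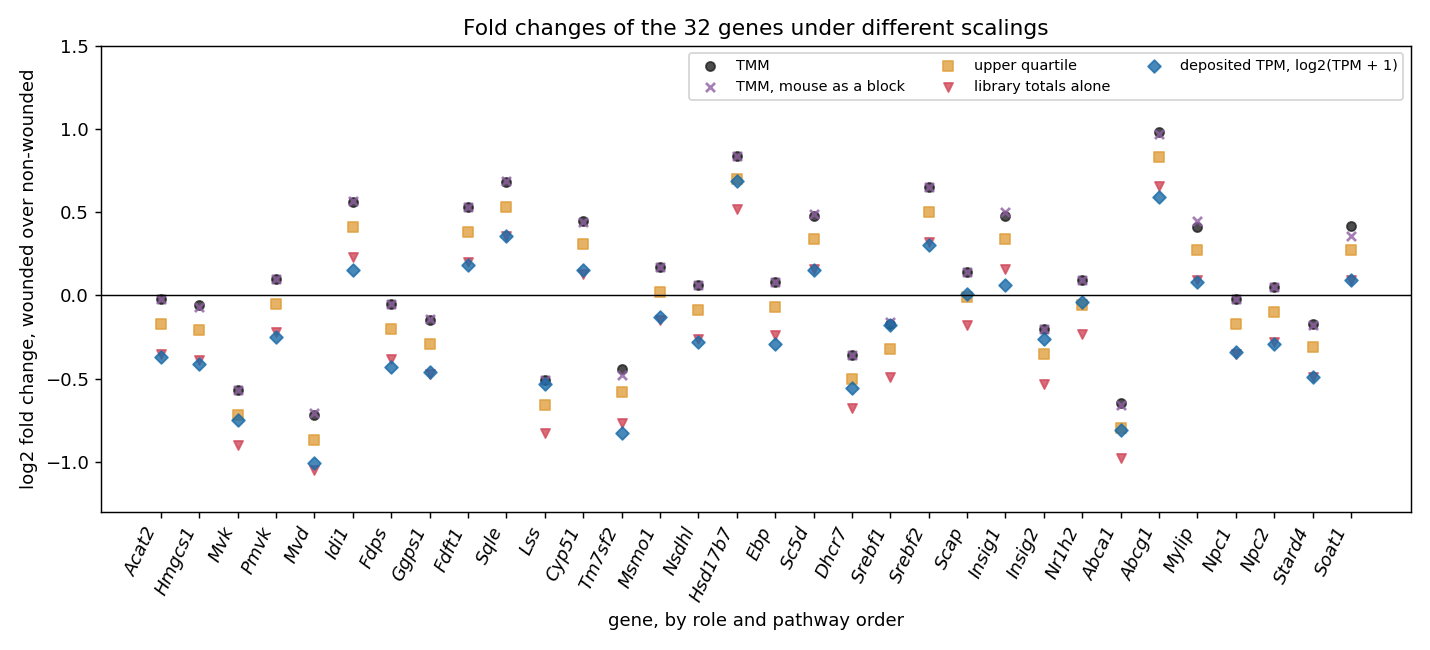
Log2 fold change of the 32 tested genes, wounded over non-wounded epidermis, under 5 fits: TMM, TMM with the mouse as a block, upper-quartile factors, library totals alone, and log2(TPM + 1) of the deposited TPM. Library totals and TPM lie below TMM for most genes, and Abcg1 and Hsd17b7 are the highest and Mvd the lowest gene in each of the 5.

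The synthesis genes also differed between the mice in a way that returned in both tissues, a pattern noticed after the values were seen. In 16 of the 19 enzymes mouse 1 was above mouse 3 in the non-wounded and in the wounded library, against 33.3% of all tested genes, and Ggps1, Lss and Pmvk were the exceptions. In 8 of the 19 the order was mouse 1, mouse 2, mouse 3 in both tissues, against 6.84% of all tested genes. In TPM the first comparison held for 14 of 19, against 28.2%. The median difference between mouse 1 and mouse 3 was log2 0.27 in non-wounded and 0.37 in wounded libraries, against 0.03 and 0.01 over all tested genes. Idi1 shows it on both sides of the comparison, with 289 and 196 CPM in the non-wounded and 422 and 327 CPM in the wounded libraries of mice 1 and 3. Mouse 1 was also above mouse 3 in both tissues in 4 of 5 SREBP control genes (medians log2 0.16 and 0.26), 2 of 4 LXR and efflux genes and 2 of 4 transport and storage genes, with Scap, Abca1, Abcg1, Npc1 and Soat1 as the exceptions. The keratinocyte markers Krt5, Krt1 and Krt10 had this order in both tissues too. Krt5 was at 6734 and 5186 CPM in the non-wounded and 5894 and 5128 CPM in the wounded libraries of mice 1 and 3. Krt14 had it only without wounding (3216 and 2905 CPM, and 4453 and 4529 CPM wounded). The part of tissue make-up in the order of the mice was not tested. With the mouse as a block 9 genes of the list were called higher and 5 lower, against 26.2% and 27.1% of all genes and 53.3% in either direction. The labels give no property that separates the 3 mice.

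**Figure D3:**
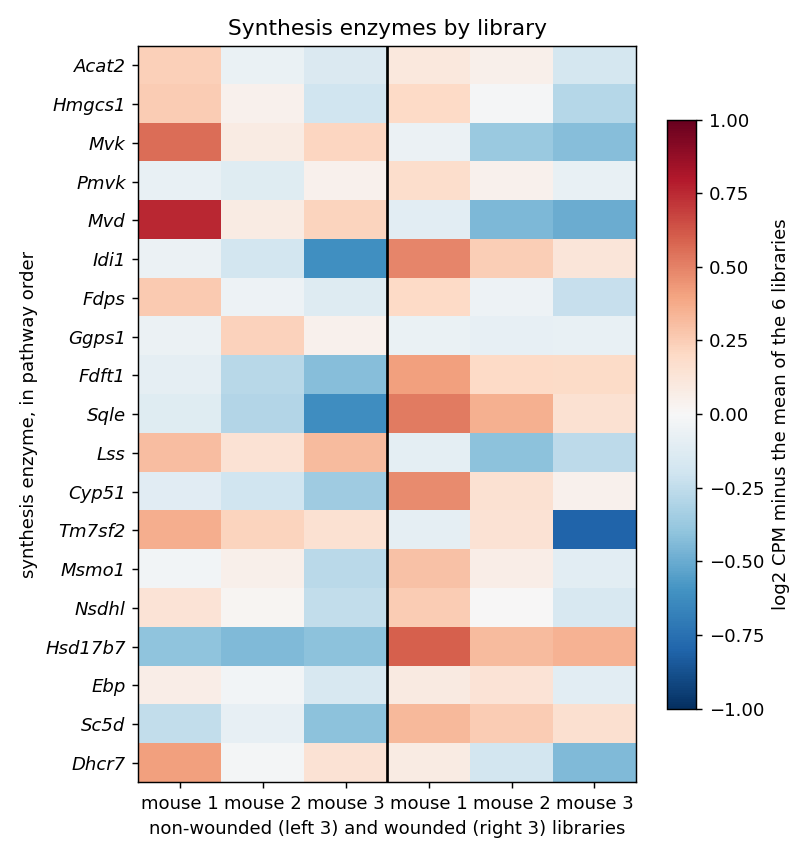
Log2 CPM of the 19 synthesis enzymes in each of the 6 libraries, less the mean of the gene over the 6, with non-wounded libraries on the left and wounded ones on the right. Most rows run from higher in mouse 1 to lower in mouse 3 within each group of libraries, and Idi1, Fdft1, Sqle, Cyp51, Hsd17b7 and Sc5d are higher on the right.

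Levels per transcript length, in the deposited TPM, spanned more than the changes did. In non-wounded epidermis Hmgcs1 (393 ± 63.5 TPM, SD, n = 3), Fdps (362 ± 61.6) and Msmo1 (353 ± 52.2) were the highest and did not differ beyond their spread. Cyp51 (145 ± 3.79), Insig2 (144 ± 22.0) and Idi1 (126 ± 20.8) came next. The exporter genes Abcg1 (7.10 ± 0.829) and Abca1 (6.86 ± 0.643) were low and within their spread of each other, and in wounded epidermis they stood apart at 11.3 ± 2.26 and 3.49 ± 0.277 TPM. LXR beta was the main LXR transcript, with Nr1h2 at 116 ± 12.4 and Nr1h3 at 0.831 ± 0.706 TPM. The summed level of the 19 synthesis enzymes was 2490.4, 2173 and 2011 TPM in non-wounded and 2171, 1862 and 1752 TPM in wounded libraries of mice 1, 2 and 3, lower in each mouse, while TPM moved log2 fold changes over all genes by -0.29 relative to TMM.

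**Figure D4:**
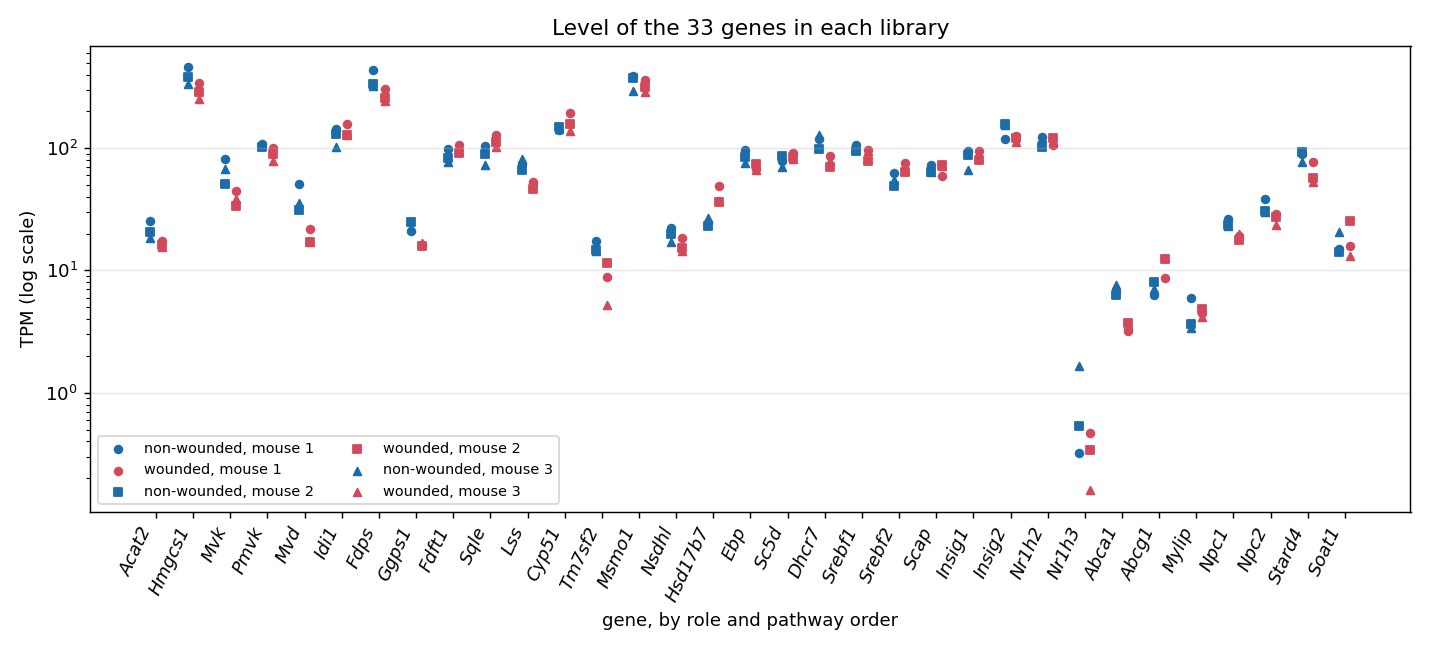
Level of the 33 genes in TPM on a log axis, with 1 point for each library, blue for non-wounded and red for wounded, and 1 symbol for each of 3 mice. Hmgcs1, Fdps and Msmo1 lie highest, and Abca1, Mylip and Nr1h3 lowest in both groups, with Nr1h3 between 0.159 and 1.64 TPM.

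A second list of 50 genes around the pathway, which leaves out many others, was read in the same fit. Of its 49 tested genes 12 rose and 14 fell, 53.1% against 48.4% of all genes, and with library totals alone 3 were higher and 25 lower. Below, the called gene with the smallest p in each direction is named for most groups of the list. Among 4 lipoprotein receptor genes Lrp8, which encodes a receptor of the same family as the VLDL receptor, went from 1.10, 1.83 and 1.32 to 5.29, 7.74 and 10.7 CPM (log2 2.48, SE 0.32, adjusted p = 0.000143 by edgeR), and none of the 4 fell (1 was lower with library totals alone). All 3 tested oxysterol and cholesterol sulphate genes were called: Ch25h, whose product makes an oxysterol that restrains SREBP processing, and Cyp27a1 fell, and Sult2b1, the gene of a cholesterol sulphotransferase of the epidermis, rose.

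Ch25h went from 38.1, 58.6 and 95.2 to 15.7, 17.3 and 23.6 CPM (log2 -1.76, SE 0.29, adjusted p = 0.000676 by edgeR), with the non-wounded libraries spread over the wider range. Sult2b1 went from 59.6, 51.1 and 44.4 to 71.3, 74.4 and 63.9 CPM (log2 0.44, SE 0.12), and was not called with library totals alone. Among 6 LXR partners and targets the heterodimer partner gene Rxra fell from 268, 211 and 231 to 151, 155 and 138 CPM (log2 -0.68, SE 0.11, adjusted p = 0.000507 by edgeR), Rxrb fell too, and Arl4c rose by log2 0.26 (SE 0.10).

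Among 11 sterol transport and ester genes 1, Osbp, rose (log2 0.30, SE 0.10) and 4 fell. The cholesterol ester hydrolase gene Nceh1 went from 17.0, 14.4 and 12.1 to 4.73, 6.35 and 5.23 CPM (log2 -1.41, SE 0.19, adjusted p = 0.000197 by edgeR), while the esterifying Soat1 did not pass. Among 8 genes of SREBP processing and sterol-regulated degradation Erlin2, whose product binds SREBP and SCAP in the endoplasmic reticulum, changed by log2 -0.82 (SE 0.13) and the SREBP protease gene Mbtps1 by -0.46 (SE 0.10). Arl4c and Osbp were called as higher under TMM, and scaled to library totals they were at log2 -0.06 and -0.02. Of the electron donors and other sterol-regulated genes 3 rose and 2 fell, among the latter the cytochrome b5 gene Cyb5a (log2 -0.57, SE 0.13). In the isoprenoid branch 2 of 10 rose and 2 fell, with Nus1, a subunit gene of the dolichol-making enzyme, at 0.72 (SE 0.12) and the farnesyltransferase subunit gene Fntb at -0.62 (SE 0.15).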

How the data were processed

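RNA was sequenced from whole epidermis of 3 mice, 2 libraries each, made by poly-dT capture. Estimated counts for gene symbols and TPM are the values the authors deposited; per the submitters' processing notes and a methods sheet among the files, Salmon and the mouse build mm10 were used for both. Versions, annotation release and strand setting were not stated in the sources used here. Both are tables of the same 6 libraries, grouped by the labels.

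Estimated counts were rounded (30.29% to 32.02% were not whole). Genes were filtered with filterByExpr (16079 of 47455 kept), scaled by TMM and tested over the whole table by quasi-likelihood in edgeR 4.0.16 (R 4.3.3), without a mouse term, with Benjamini-Hochberg adjustment. Each SE was obtained from the log2 fold change (its size over the root of the F statistic). Log2 CPM within mice used a prior count of 2. The test was tried on simulated counts. Permuting 3 against 3 libraries can reach no exact two-sided p below 0.1, and no such test of a single gene was made. Libraries of a group differed by more than counting noise (chi-square per gene 15.2 to 42.3 over genes with at least 20 counts).

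The 2 libraries of a number come from 1 mouse, as the labels state. Deviations from the group means correlated at 0.152, 0.041 and 0.167 within mice 1, 2 and 3 and at -0.145 to 0.006 between mice.

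Alternatives were RLE and upper-quartile factors, library totals alone, no filter, DESeq2 1.42.0, the mouse as a block, limma 3.58.1 on log2(TPM + 1) and log2(TPM + 0.1) for genes with a mean of at least 0.5 TPM, log2(TPM + 1) for all genes, and leaving out each library. Leaving out both libraries of a mouse was added after seeing the data. The members, the related genes and the markers were chosen with earlier results of these data known. All 33 members are named, with values in every library for called members with an absolute log2 fold change of at least 0.8, for Srebf1, Srebf2, Nr1h2, Nr1h3, Abca1 and Abcg1, and for members whose call changes under an alternative named in the text; those of Mvk, Mvd, Lss and Hmgcs1 and the ratios of members were added after the values were seen, as were Rxrb, Cyp27a1 and Mbtps1. The promoter of Abca1 stands in for that of Abcg1, the efflux gene with the largest change. Of the related genes the called one with the smallest p in each direction is named for each group, apart from some genes that are not reported here. Coordinates and exon overlaps are from GENCODE (GRCm38), and promoter windows from RefSeq (GRCm38.p6). The authors' own annotation may differ.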

Additional observations from a re-analysis of the deposited data

How the results depend on the processing

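The TPM settings differ from the count fit in measure, test and filter as well as scaling. Genes called higher over the whole table were 3859 under TMM, 2168 with library totals alone, 1744 with log2(TPM + 1), 1741 with log2(TPM + 0.1) and 1561 with log2(TPM + 1) for all genes. Genes called lower over the whole table were 3917 under TMM, 5053 with upper-quartile factors and 6655 with library totals alone. With the TPM settings, in the same order, genes called lower were 5061, 5067 and 4199. Members called higher numbered 9 under TMM, 4 with library totals alone, 2 with either TPM setting and 1 with TPM of all genes. Members called lower numbered 4 under TMM, 8 with upper-quartile factors, 14 with library totals alone, 10 with either TPM setting and 7 with TPM of all genes. Of 50 related genes 26 were called, and 17 with TPM of all genes. The medians of the synthesis enzymes in mice 1, 2 and 3 were -0.11, -0.12 and -0.20 with upper-quartile factors, -0.30, -0.32 and -0.35 with library totals alone, -0.36, -0.32 and -0.24 with log2(TPM + 1) and -0.38, -0.34 and -0.25 with log2(TPM + 0.1). Those of the efflux genes were -0.27, 0.11 and -0.01 with library totals alone, and -0.28 and 0.05 (mice 1 and 3) with log2(TPM + 1) and -0.30 and 0.08 with log2(TPM + 0.1). The cause was not tested.

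Without 1 library, or both of 1 mouse, genes called higher ranged from 2584 to 3597, genes called lower from 2232 to 3600, members called higher from 7 to 10 and lower from 4 to 5, and related genes called from 12 to 23. The lowest counts over all genes and over the related genes came without both libraries of mouse 2 (2232 genes lower, 12 related genes), against 3124 and 3275 genes lower and 23 and 18 related genes without mouse 1 or mouse 3. In addition, 17 related genes were called when the wounded library of mouse 2 was dropped, and 17 when the non-wounded library of mouse 3 was. With the replicate block for the mouse, 4212 genes were called higher and 4351 lower, 26 related genes were called, 9 members were higher and 5 lower, and the block changed the call of no member but Dhcr7. RLE factors changed the call of 0 of the 32 members and DESeq2 that of 1, Dhcr7. No called member reversed in sign under any of the 18 alternatives.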
